A study of Drosophila melanogaster with 6 samples.

Results

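The 10 genes described here carry the response to ecdysone, the steroid hormone of insects: EcR, usp, Eip74EF, Eip75B, Eip78C, Eip93F, br, ftz-f1, Hr3 and Hr38. They were taken as a fixed list from 17807 RefSeq genes with a position in the Drosophila melanogaster assembly (dm6), and each gene was read together with 1 kb on either side. A peak belonged to a gene if it overlapped that window by at least 1 bp. In all, 139 peaks of the 6 libraries fell in these windows, and where peaks overlapped they were joined into 47 regions, numbered along each gene from its lower coordinate.

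Ecdysone is converted to an active form that enters the nucleus and binds a pair of nuclear receptors, EcR and Usp. The bound pair switches on a small set of early regulators, among them the products of br, Eip74EF and Eip75B, which in turn time the expression of later genes such as Hr3, ftz-f1 and Eip93F. The cascade is best known for driving moulting and metamorphosis, and in the adult fly the same hormone acts on behaviour, sleep and memory. In MeDIP-seq an antibody against 5-methylcytosine pulls down sheared DNA, and peaks mark stretches recovered above an input library. DNA methylation in flies is known to be sparse.

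The series compared lead with control flies to ask whether lead altered genome methylation. The lead group carried the treatment label F3-800um and the control group the label F3-0um, where the labels do not say what F3 stands for or spell out the unit. Each group held 3 libraries of adult heads of genotype WT, and no other allele or agent is named for either group. Neither age, sex nor separate cultures are given, so the p-values speak of the scatter of these samples alone, and that scatter may be technical. Peak lists hold no expression values, so the tissue label could not be checked against marker genes.

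The lists held 3522, 1379 and 2536 peaks in lead replicates 1, 2 and 3, and 1746, 2414 and 2157 peaks in control replicates 1, 2 and 3. Peaks on X made up 32.1% of the list of lead replicate 1 and 21.6% to 24.5% of the other 5 lists. The number of reads behind each list is unknown, so a stretch without a peak is not thereby shown to be unmethylated, and a difference in the number of peaks between libraries cannot be told apart from a difference in depth. Each peak carries a whole-number score given by the authors. It is used here only as a rank within its list, where rank 1 is the highest score, or as a percentile, the percentage of that list's peaks that scored the same or lower. Ranks and percentiles from lists of different lengths do not measure change between libraries.

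Peaks were found in 8 of the 10 genes, and usp and Eip78C had none in any library. Over all genes 12.2% had a peak in at least 1 library. EcR, Eip74EF, Eip75B, Eip93F, br and ftz-f1 each had a peak in all 6 libraries, a pattern that 3.69% of all genes showed. These members are long, from 50.7 kb for ftz-f1 to 113.7 kb for Eip75B, where the median span of all genes is 1.70 kb, and a longer gene offers more room for a peak. The 10 members were also chosen with earlier results of these data known, so these shares are a description with no test. Hr3 was marked in 2 lead libraries and 1 control library, and Hr38 in 2 lead libraries and in 0 control libraries.

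**Figure D1:**
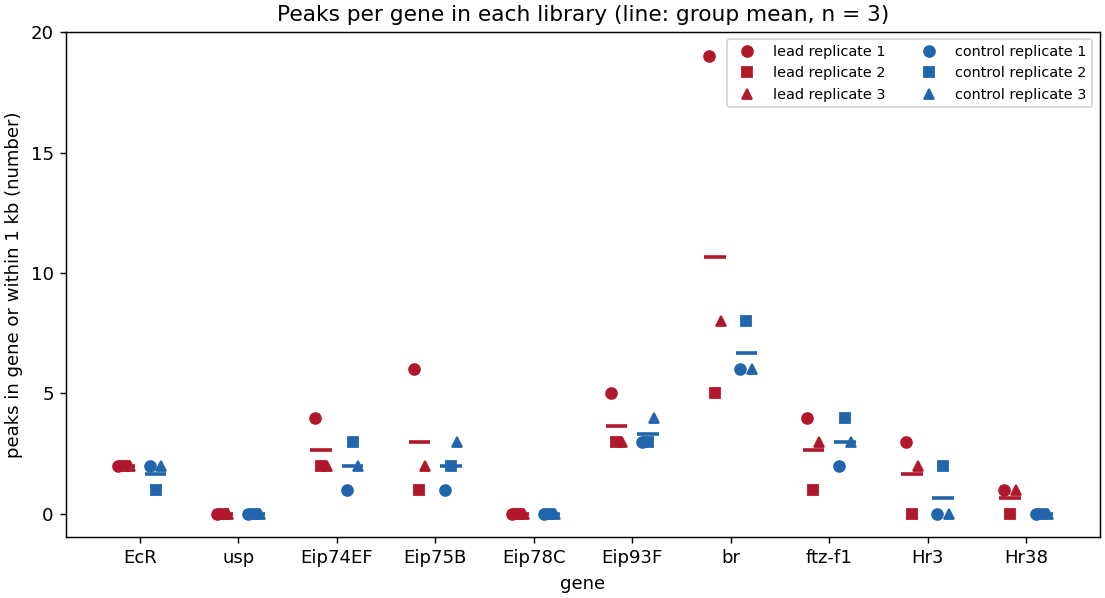
Number of peaks in each gene or within 1 kb of it (y axis) for the 10 hormone response genes (x axis); points are libraries, lead in red left of control in blue, and lines are group means (n = 3). The highest point, 19 peaks, is br in lead replicate 1, and usp and Eip78C lie at 0 in all 6 libraries.

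No member separated the groups. Of the 47 regions, 0 had a peak in all 3 lead and 0 control libraries, where 0.441% of 4538 regions over the genome did, and 0 had a peak in all 3 control and 0 lead libraries, where 0.154% did. Of the 10 genes, 0 did so in either direction, against 0.0618% of all genes for lead and 0.00562% for control. Fisher's exact p for 3 libraries against 0 is 0.1, so no single region or gene could pass a threshold of 0.05. Without lead replicate 2, 3 regions (Hr3 2, br 8 and Hr38 1) and 1 gene (Hr38) had peaks in both remaining lead libraries and in 0 control libraries, as did 4.73% of all regions and 0.438% of all genes in that setting. Without lead replicate 1, the region br 10 had a peak in all 3 control libraries and in 0 lead libraries, 1 of 31 member regions beside 1.19% of all regions in that setting.

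Member peaks numbered 44, 14 and 23 in lead replicates 1, 2 and 3, and 15, 23 and 20 in control replicates 1, 2 and 3. The groups overlapped, and lead held both the highest and the lowest library. The means were 27 ± 15.4 peaks in lead and 19.3 ± 4.04 peaks in control samples (± SD, n = 3 each), and the difference of 7.67 did not reach the SD of the lead group (two-sided exact permutation test, p = 0.7). With 3 libraries against 3 the smallest p this test can give is 0.1. The difference turned to -0.833 without lead replicate 1. With the 1379 highest scoring peaks of each list it was 1.33, and on the autosomes alone 3.67.

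The share of a library's peaks that fell in member windows was less unequal. It was 1.25%, 1.02% and 0.907% in lead replicates 1, 2 and 3, and 0.859%, 0.953% and 0.927% in control replicates 1, 2 and 3. The means were 1.06% ± 0.175 in lead and 0.913% ± 0.0484 in control samples (± SD, n = 3 each; two-sided exact permutation test, p = 0.3). Lead replicate 1 was the highest and lead replicate 2 the next, both above every control library. Lead replicate 3 lay within the control range. The difference of 0.144 percentage points was 0.0481 without lead replicate 1, and 0.219 without lead replicate 3 (two-sided exact permutation test, p = 0.1, the smallest possible).

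Members with a peak numbered 7.33 ± 1.15 in lead and 6.33 ± 0.577 in control samples (± SD, n = 3 each; two-sided exact permutation test, p = 0.4). Without lead replicate 2 the difference of 1 member was 1.67 (two-sided exact permutation test, p = 0.2). Lead replicates 1 and 3 held a peak in all 8 marked genes, and lead replicate 2 and control replicates 1 and 3 lacked both Hr3 and Hr38. Member peaks covered 15.6, 3.88 and 7.69 kb in lead replicates 1, 2 and 3, and 5.47, 7.97 and 7.75 kb in control replicates 1, 2 and 3. Covered bases did not differ beyond the spread of the libraries (9051 ± 5971 bp in lead, 7064 ± 1383 bp in control; SD, n = 3 each; two-sided exact permutation test, p = 0.9). That difference of 1988 bp turned to -1279.7 bp without lead replicate 1.

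**Figure D2:**
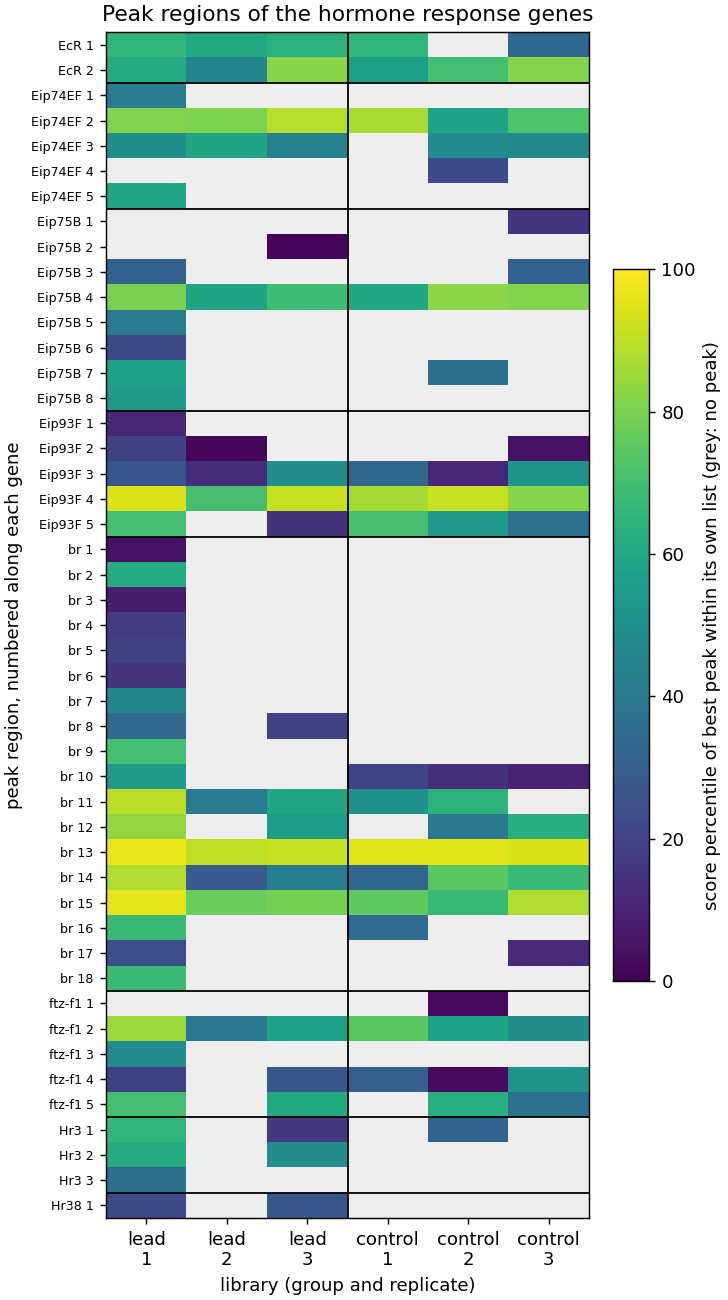
The 47 peak regions of the 8 marked genes (rows, numbered along each gene from its lower coordinate) in the 6 libraries (columns, lead left of control); colour is the score percentile of the library's best peak within its own list and grey means no peak. 9 rows are filled in all 6 libraries, and the lead replicate 1 column is filled in most rows, 17 of them in that library alone.

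The 47 regions fell into a shared and a scattered kind. Peaks of all 6 libraries met in 9 regions, close to the share over the genome (19.6% of all regions). Another 5 regions had peaks in 5 libraries. Both groups were present in 23 regions, where 57.9% of all regions were so shared. At the other end 21 regions came from a single library, where 35.5% of all regions did, and 17 of those 21 came from lead replicate 1. Over the genome that library held 869 of 1611 single-library regions (53.9%). Lead replicate 2 and control replicate 1 held 0 single-library regions of these genes, and few over the genome, 35 (2.17%) and 84 (5.21%) of the 1611. Of the 47 member regions, 21 had peaks in lead libraries only, where 30.7% of all regions did. These lead-only regions include the 17 that came from lead replicate 1 alone. Another 3 of the 47 held control peaks alone, where 11.3% of all regions did.

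Member peaks had the size of other peaks. Their widths ran from 203 to 1488 bp with a median of 303 bp, beside 288 bp over all peaks. The median width per library was 294.5, 261.5 and 319 bp in lead replicates 1, 2 and 3, and 306, 272 and 334.5 bp in control replicates 1, 2 and 3. The group means of these medians were 292 ± 28.9 bp in lead and 304.2 ± 31.3 bp in control samples (± SD, n = 3 each; two-sided exact permutation test, p = 0.7). Their difference of -12.5 bp turned to 2.58 bp without lead replicate 2 and to 2.67 bp without control replicate 3. Of the member peaks, 54.0% scored at or above 47, the median score of all lists, and so did 51.5% of all peaks. Of the 47 regions 45 lay inside their gene, and 23 also overlapped another annotated gene. The gene table used here gives no strand, exons or introns, so positions are given from the lower- and upper-coordinate ends of a gene rather than from its start, and refer to the middle of a peak or region.

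**Figure D3:**
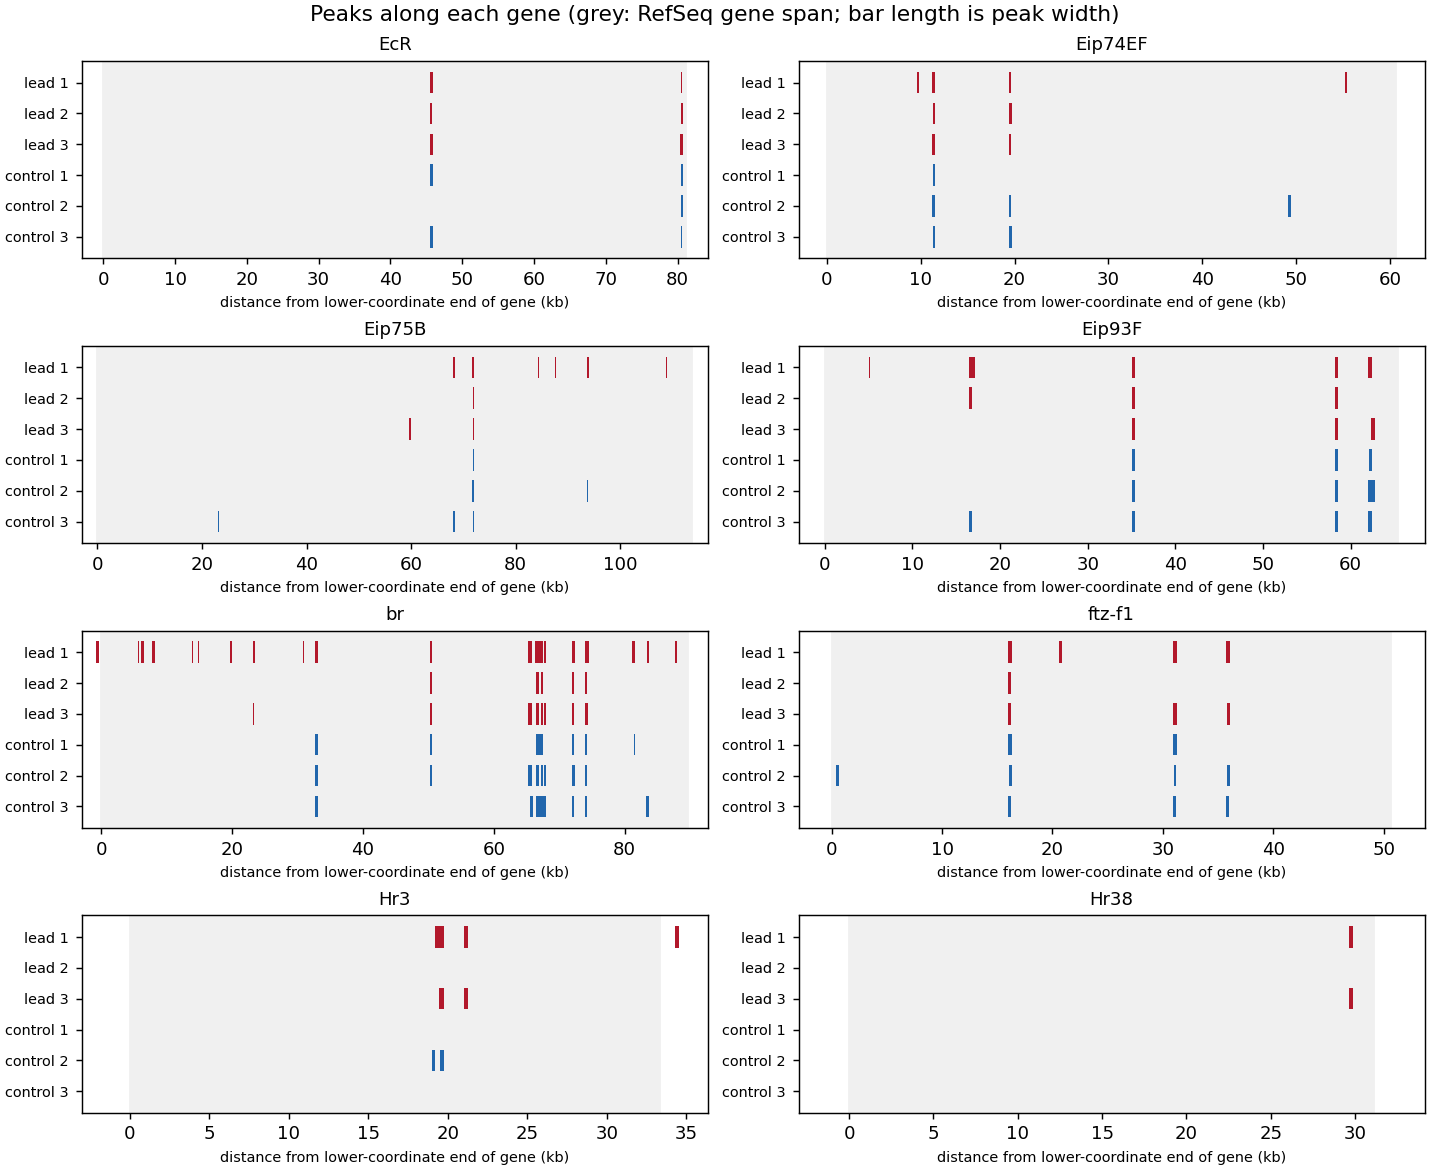
Peaks along the 8 marked genes; the x axis is the distance in kb from the lower-coordinate end of the gene, each row is a library (3 lead in red above 3 control in blue), bars are peaks drawn to scale and the grey band is the annotated span. EcR shows the same pair of positions in most libraries, whereas the lower-coordinate end of br is filled in lead replicate 1 and holds 1 peak in lead replicate 3.

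The receptor pair differed in its marks and in its length. EcR (2R, 6087873 to 6169087) encodes the ecdysone receptor itself and had 2 regions, while usp (X, 2038798 to 2042311), which encodes its partner, had none. The peak nearest to usp lay 23.4 to 33.2 kb away, depending on the library. The span of usp is 3.51 kb, and a shorter gene offers less room for a peak. Over all genes, 12.2% had a peak in at least 1 library, so most genes had none. EcR held 2, 2 and 2 peaks in lead replicates 1, 2 and 3, and 2, 1 and 2 peaks in control replicates 1, 2 and 3. The gene is 81.2 kb long, and much of it had no peak.

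EcR 2 (2R, 6168255 to 6168572) had a peak in every library and lay 0.674 kb inside the upper-coordinate end of the gene. Its widths were 218, 237 and 318 bp in lead replicates 1, 2 and 3, and 250, 261 and 256 bp in control replicates 1, 2 and 3. Control widths were nearly equal and fell within the range of the lead widths. Its ranks were 1363, 756 and 453 in lead replicates 1, 2 and 3, and 754, 720 and 391 in control replicates 1, 2 and 3, which are percentiles of 45.3 to 82.2 in their own lists. EcR 1 (2R, 6133386 to 6133861) had its middle 45.8 kb from the lower end and was missing in control replicate 2. It was 445, 234 and 447 bp wide in lead replicates 1, 2 and 3, and 423 and 436 bp wide in control replicates 1 and 3. Lead replicate 2 gave the narrowest peak, and the other 4 widths lay between 423 and 447 bp. Its percentiles ran from 33.8 in control replicate 3 to 65.6 in lead replicate 1 and control replicate 1.

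Of the early genes, Eip74EF (3L, 17558672 to 17619325), which encodes an ETS-domain transcription factor, had 5 regions. It held 4, 2 and 2 peaks in lead replicates 1, 2 and 3, and 1, 3 and 2 peaks in control replicates 1, 2 and 3, so the groups overlapped. Eip74EF 2 (3L, 17569909 to 17570253) was present in all libraries and ranked high in most. It was 285, 261 and 328 bp wide in lead replicates 1, 2 and 3, and 301, 272 and 253 bp wide in control replicates 1, 2 and 3. Ranks were 668, 275 and 283 in lead replicates 1, 2 and 3, and 224, 1016 and 612 in control replicates 1, 2 and 3. The lowest percentile, 58.0, was that of control replicate 2, and the highest, 88.9, that of lead replicate 3.

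Eip74EF 3 (3L, 17578116 to 17578374) lay further along and was missing in control replicate 1. Widths there were 221, 256 and 220 bp in lead replicates 1, 2 and 3, and 203 and 231 bp in control replicates 2 and 3, with percentiles from 44.2 to 58.4. The other 3 regions came from 1 library each. Lead replicate 1 alone gave Eip74EF 1 (17568295 to 17568518, 224 bp, rank 2054) and Eip74EF 5 (17613844 to 17614089, 246 bp, rank 1446). Control replicate 2 alone gave Eip74EF 4 (17607777 to 17608110, 334 bp, rank 1873).

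Eip75B (3L, 17950953 to 18064696) is the longest member, a nuclear receptor that binds heme and opposes Hr3, and 5 of its 8 regions came from a single library. It held 6, 1 and 2 peaks in lead replicates 1, 2 and 3, and 1, 2 and 3 peaks in control replicates 1, 2 and 3. Only Eip75B 4 (3L, 18022603 to 18023044) was common to all 6 libraries. It was 363, 233 and 340 bp wide in lead replicates 1, 2 and 3, and 279, 442 and 254 bp wide in control replicates 1, 2 and 3. Its ranks were 706, 575 and 786 in lead replicates 1, 2 and 3, and 705, 425 and 402 in control replicates 1, 2 and 3, which are percentiles of 58.4 to 82.4. In lead replicate 2 and control replicate 1 it was the one peak of the gene.

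The remaining peaks of Eip75B were weaker within their lists. Eip75B 3 (18018965 to 18019314) had a peak of 303 bp in lead replicate 1 and of 350 bp in control replicate 3, at percentiles 31.7 and 31.2. Eip75B 7 (18044647 to 18044932) had a peak of 286 bp in lead replicate 1 and of 203 bp in control replicate 2, at percentiles 57.5 and 37.0. Lead replicate 1 alone gave Eip75B 5 (18035180 to 18035399, 220 bp, rank 2054), Eip75B 6 (18038388 to 18038598, 211 bp, rank 2745) and Eip75B 8 (18059668 to 18059896, 229 bp, rank 1616). Thus 5 of the 6 peaks of this library lay outside the shared region. Lead replicate 3 alone gave Eip75B 2 (18010470 to 18010858, 389 bp), near the bottom of its list at percentile 1.34, and control replicate 3 alone gave Eip75B 1 (17973914 to 17974194, 281 bp) at percentile 15.1.

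The most marked member was br (X, 1575132 to 1664869), an early gene that encodes BTB zinc-finger proteins and specifies pupal fate. It held 18 of the 47 regions and 52 of the 139 peaks. Among the 17807 genes, 10 had more regions than br. This ranking is not adjusted for length, and br spans 89.7 kb where the median of all genes is 1.70 kb. Without lead replicate 1, which alone gave 9 of its regions, br had 9 regions and 26 genes had more. It held 19, 5 and 8 peaks in lead replicates 1, 2 and 3, and 6, 8 and 6 peaks in control replicates 1, 2 and 3. Lead replicate 1 stood far above the other 5 libraries, which overlapped. The means were 10.7 ± 7.37 peaks in lead and 6.67 ± 1.15 peaks in control samples (± SD, n = 3 each; two-sided exact permutation test, p = 0.7), and without lead replicate 1 the difference of 4 peaks turned to -0.167. All 18 regions also lie in the span of Mur2B (X, 1523554 to 1668788), a mucin-related gene that contains br, so they cannot be assigned to one of these genes.

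Lead replicate 1 had both the most br peaks and the highest share of peaks on X. It also had the most peaks in the autosomal members, 25 beside 9 to 15 in the other libraries. As a share of a library's own X peaks, br peaks made up 1.68%, 1.67% and 1.46% in lead replicates 1, 2 and 3, and 1.47%, 1.47% and 1.13% in control replicates 1, 2 and 3. Read this way lead replicate 1 lay next to lead replicate 2. The part of the X share in the br count was not tested.

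The share of br under peaks is set beside that of all X genes as a description with no test, since br was singled out for its many peaks. Peaks covered 8.29%, 1.66% and 3.08% of the br window in lead replicates 1, 2 and 3, and 2.83%, 3.42% and 3.69% in control replicates 1, 2 and 3. Over the windows of all genes on X the same measure was 1.82%, 0.476% and 0.869% in lead replicates 1, 2 and 3, and 0.671%, 0.803% and 0.874% in control replicates 1, 2 and 3. The other member on X, usp, had 0 bases under peaks. The ratio of br to all X genes was 4.56, 3.49 and 3.55 in lead replicates 1, 2 and 3, and 4.21, 4.26 and 4.22 in control replicates 1, 2 and 3, so the groups overlapped.

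For the 8 autosomal members together, coverage was 1.59%, 0.479% and 0.988% of the windows in lead replicates 1, 2 and 3, and 0.585%, 0.981% and 0.888% in control replicates 1, 2 and 3. The ratio to all autosomal gene windows lay between 1.33 and 2.12, again as a description, because the members were chosen with results of these data known and the libraries share many peak positions. Between groups, the coverage of br and of the autosomal members did not differ beyond the spread (two-sided exact permutation test, p = 0.9 and 0.7).

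**Figure D4:**
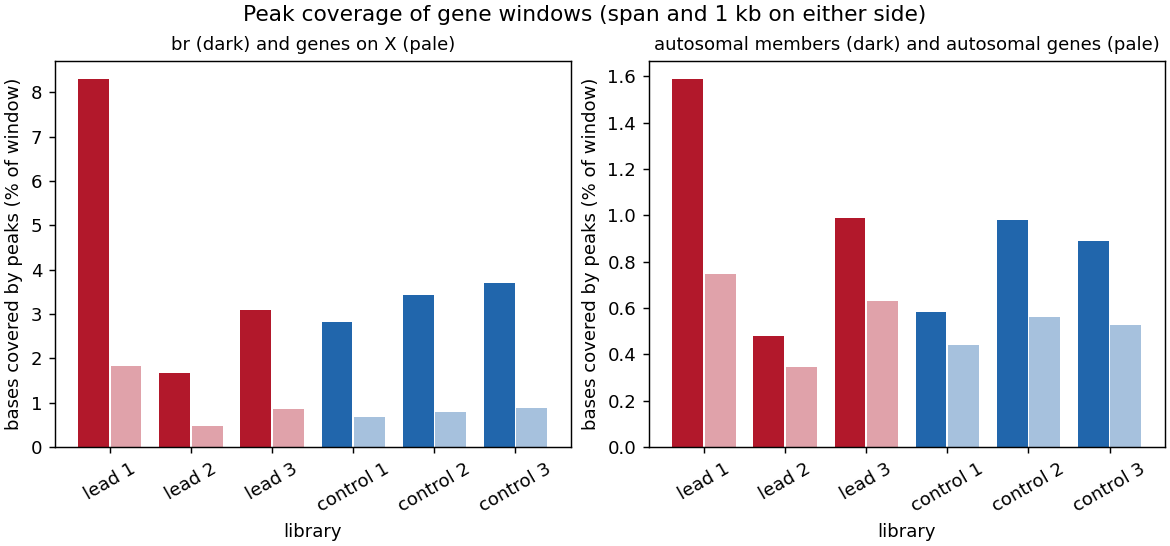
Percentage of bases covered by peaks in each library (x axis, lead in red left of control in blue); the left panel sets br (dark bars) beside all genes on X (pale bars) and the right panel sets the 8 autosomal members beside all autosomal genes, each with 1 kb on either side. The dark bar is the taller in every library of both panels, and br in lead replicate 1 reaches 8.29%.

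Within br the peaks were concentrated toward the upper-coordinate end. The 4 regions br 12 to br 15 lie in 9.30 kb (X, 1640349 to 1649650), a stretch picked out after the positions were seen. They held 41.1%, 85.6% and 83.2% of the br bases under peaks in lead replicates 1, 2 and 3, and 63.7%, 78.0% and 76.5% in control replicates 1, 2 and 3. Lead replicate 1 had the lowest share, since it held peaks elsewhere in the gene.

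The highest ranked member region in every list was br 13 (X, 1641484 to 1643123), tied with a region of Eip93F in lead replicate 3. The ranks of its best peak were 102, 133 and 211 in lead replicates 1, 2 and 3, and 88, 115 and 134 in control replicates 1, 2 and 3, which put it at percentile 90.4 or above in every list. Its peaks covered 1388, 736 and 1048 bp in lead replicates 1, 2 and 3, and 997, 1095 and 1488 bp in control replicates 1, 2 and 3. The groups overlapped, with means of 1057 ± 326 bp in lead and 1193 ± 259.9 bp in control samples (± SD, n = 3 each; two-sided exact permutation test, p = 0.6). Libraries cut the region differently. Control replicates 1 and 3 had a single peak of 997 and 1488 bp, lead replicates 1 and 2 had 2 peaks each, and lead replicate 3 and control replicate 2 had 3 peaks each. The highest scoring peak was the wide 1641484 to 1642650 in lead replicate 1, and the narrower 1642343 to 1642613 in lead replicate 2, 1642311 to 1642666 in lead replicate 3 and 1642323 to 1642653 in control replicate 2.

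The neighbouring br 15 (X, 1649034 to 1649650) and br 14 (X, 1647044 to 1647581) were also present in all 6 libraries. For br 15 the widths were 617, 323 and 412 bp in lead replicates 1, 2 and 3, and 383, 252 and 394 bp in control replicates 1, 2 and 3, with ranks of 132, 317 and 534 in the same lead order and 429, 790 and 261 in the control order. For br 14 they were 466, 246 and 292 bp in lead replicates 1, 2 and 3, and 272, 504 and 353 bp in control replicates 1, 2 and 3, with percentiles from 28.6 to 88.2. In both regions the lead and control widths overlapped. The wide br 12 (X, 1640349 to 1641074) was missing in lead replicate 2 and control replicate 1, and covered 654 and 602 bp in lead replicates 1 and 3, and 595 and 355 bp in control replicates 2 and 3.

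Further regions of br were shared by fewer libraries. A peak at br 11 (X, 1625366 to 1625672) was missing in control replicate 3, and its widths were 307, 219 and 248 bp in lead replicates 1, 2 and 3, and 254 and 216 bp in control replicates 1 and 2. The region br 10 (X, 1607778 to 1608327) was the one member region present in 3 control libraries and 1 lead library. It was 550 bp wide in lead replicate 1, and 459, 473 and 413 bp wide in control replicates 1, 2 and 3. Its percentiles were 54.1 in lead replicate 1, and 20.1, 13.6 and 9.64 in control replicates 1, 2 and 3, so the control peaks were among the lower scoring of their lists. Near the upper end, br 16 (1656201 to 1656765) had 565 bp in lead replicate 1 and 229 bp in control replicate 1, and br 17 (1658473 to 1658854) had 303 bp in lead replicate 1 and 382 bp in control replicate 3.

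The first 31.8 kb of the br regions (X, 1574375 to 1606142) held br 1 to br 9 and was marked in lead replicate 1 at all 9 of them. This stretch was also picked out after the positions were seen. All of its regions but br 8 are defined by a peak of lead replicate 1 alone, so its full marking there is no separate result. Lead replicate 3 had a peak at br 8 (1598290 to 1598568), of 226 bp beside 279 bp in lead replicate 1, and lead replicate 2 and the 3 control libraries had 0 peaks in the stretch. The peaks of lead replicate 1 there included br 9 (1605910 to 1606142, 233 bp) at rank 1060, br 2 (1580738 to 1580950, 213 bp) at rank 1363 and br 7 (1594862 to 1595103, 242 bp) at rank 1918. These 3 stood at percentiles 69.9, 61.3 and 45.6 of the list. The others were lower: br 4 (1582861 to 1583317, 457 bp) at rank 2910, br 5 (1588975 to 1589202, 228 bp) at 2826, br 6 (1589887 to 1590104, 218 bp) at 2999, br 3 (1581245 to 1581591, 347 bp) at 3257 and br 1 (1574375 to 1574700, 326 bp), which lies outside br, at 3351. At the other end br 18 (1662879 to 1663086, 208 bp, rank 1156) was again found in lead replicate 1 alone.

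Among the genes of the later response, Eip93F and ftz-f1 were marked in every library. Eip93F (3R, 21949114 to 22014539) encodes a transcription factor that directs adult specification and hormone-triggered cell death. It held 5, 3 and 3 peaks in lead replicates 1, 2 and 3, and 3, 3 and 4 peaks in control replicates 1, 2 and 3, in 5 regions. The groups overlapped.

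Eip93F 4 (3R, 22007277 to 22007714) held the highest ranked peak of the gene in all 6 libraries. It was 369, 279 and 405 bp wide in lead replicates 1, 2 and 3, and 306, 420 and 342 bp wide in control replicates 1, 2 and 3. Its ranks were 204, 410 and 211 in lead replicates 1, 2 and 3, and 236, 200 and 391 in control replicates 1, 2 and 3, and its percentiles ran from 70.3 to 94.2. In lead replicate 3 it shared rank 211 with the best peak of br 13. Eip93F 3 (3R, 21984142 to 21984503) was also present in all libraries but scored low, at percentiles from 11.5 in control replicate 2 to 51.7 in control replicate 3. Its widths were 361, 288 and 317 bp in lead replicates 1, 2 and 3, and 296, 249 and 327 bp in control replicates 1, 2 and 3.

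Eip93F 5 (3R, 22011032 to 22011893) was missing in lead replicate 2. Its widths were 512 and 467 bp in lead replicates 1 and 3, and 322, 783 and 435 bp in control replicates 1, 2 and 3. Control replicate 2 gave the widest and control replicate 1 the narrowest peak, with both lead widths between them. Eip93F 2 (3R, 21965521 to 21966195) was 675 and 306 bp wide in lead replicates 1 and 2, and 323 bp wide in control replicate 3, and Eip93F 1 (3R, 21954113 to 21954323, 211 bp, rank 3137) came from lead replicate 1 alone.

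The orphan receptor gene ftz-f1 (3L, 18750607 to 18801309), a competence factor for the prepupal response to ecdysone, held 4, 1 and 3 peaks in lead replicates 1, 2 and 3, and 2, 4 and 3 peaks in control replicates 1, 2 and 3. Here lead replicate 1 was matched by control replicate 2. The region ftz-f1 2 (3L, 18766594 to 18766957) had a peak in all libraries, with widths of 360, 262 and 232 bp in lead replicates 1, 2 and 3, and 340, 272 and 299 bp in control replicates 1, 2 and 3. It was the one peak of the gene in lead replicate 2. Ranks were 520, 837 and 1085 in lead replicates 1, 2 and 3, and 449, 1016 and 1097 in control replicates 1, 2 and 3.

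The 3 control libraries and 2 lead libraries shared ftz-f1 4 (3L, 18781510 to 18781886), which was 326 and 319 bp wide in lead replicates 1 and 3, and 360, 227 and 317 bp wide in control replicates 1, 2 and 3. The region ftz-f1 5 (3L, 18786323 to 18786723) was 362 and 329 bp wide in lead replicates 1 and 3, and 335 and 266 bp wide in control replicates 2 and 3. Both lie in the span of lncRNA:CR45939 as well. Single libraries gave ftz-f1 3 (18771196 to 18771474, 279 bp, rank 1829, lead replicate 1) and ftz-f1 1 (18750957 to 18751301, 345 bp, rank 2344, control replicate 2). The middle of ftz-f1 1 lay 0.522 kb inside the lower end of the gene, and the peak was near the bottom of its list.

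Hr3 and Hr38 were marked in part of the libraries only. Hr3 (2R, 10203995 to 10237348) encodes an orphan receptor that activates ftz-f1, and held 3, 0 and 2 peaks in lead replicates 1, 2 and 3, and 0, 2 and 0 peaks in control replicates 1, 2 and 3. The means were 1.67 ± 1.53 peaks in lead and 0.667 ± 1.15 peaks in control samples (± SD, n = 3 each; two-sided exact permutation test, p = 0.7). Hr3 1 (2R, 10222985 to 10223764) had a peak of 568 bp in lead replicate 1, of 293 bp in lead replicate 3, and a pair of 239 and 245 bp in control replicate 2. Hr3 2 (2R, 10225024 to 10225273) had a peak of 227 bp in lead replicate 1 and of 233 bp in lead replicate 3, at percentiles 61.3 and 49.3. Both regions also lie in CG12912 and CG46321. Hr3 3 (2R, 10238254 to 10238524, 271 bp, rank 2224, lead replicate 1) lies outside the gene, in Hdc, which encodes histidine decarboxylase.

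Hr38 (2L, 20683462 to 20714588) encodes an orphan receptor that can also pair with Usp and whose transcription follows neuronal activity. Its single region, Hr38 1 (2L, 20713107 to 20713329), lay 1.37 kb inside the upper end of the gene. It had a peak of 213 bp at rank 2745 in lead replicate 1 and of 223 bp at rank 1853 in lead replicate 3. Both ranks fall in the lower part of their lists, at percentiles 22.1 and 27.0. The nearest peak in lead replicate 2 was 44.3 kb from the gene, and in control replicates 1, 2 and 3 it was 44.2, 35.7 and 44.2 kb away. Lead replicates 1 and 3 had the most peaks of all libraries, and depth was not tested as a source of this pattern.

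Eip78C (3L, 21226609 to 21266503), an early-late nuclear receptor gene, spans 39.9 kb and had no peak in any list. The nearest peak lay 49.0 to 64.4 kb away. With 5 kb in place of 1 kb on either side, usp and Eip78C still had no peak.

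Widths in the shared regions did not separate the groups. In the 9 regions held by all 6 libraries the bases under peaks overlapped between lead and control in every case. Over the 890 such regions of the genome, lead covered more bases without overlap in 3.71% and control in 1.8%. Exact two-sided permutation p-values for the 9 regions ran from 0.4 at br 15 to 1 at EcR 2 and Eip93F 4, and all were 1 after Benjamini-Hochberg adjustment over the 890 regions. At br 15 the means were 451 ± 151 bp in lead and 343 ± 79 bp in control samples (± SD, n = 3 each), a difference of 107.7 bp.

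**Figure D5:**
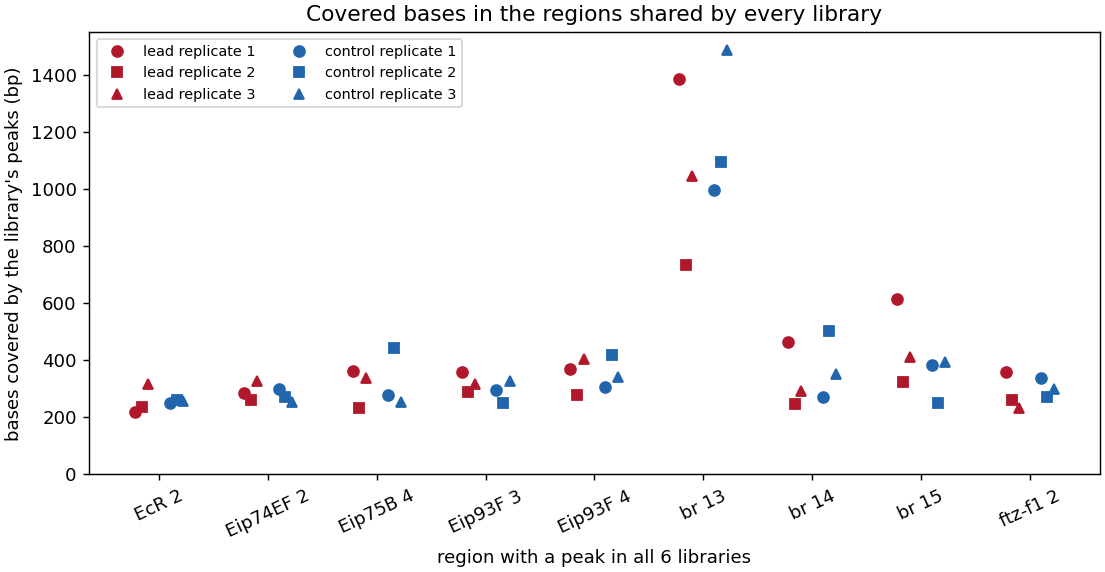
Bases covered by each library's peaks (y axis, bp) in the 9 member regions that have a peak in all 6 libraries (x axis); points are libraries, lead in red left of control in blue. The lead and control points overlap in each region, and br 13 stands above the others with 736 to 1488 bp.

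Other genes of the pathway were read from 5 lists of 91 genes written without the members. A peak lay in or near 30 of the 91 (33.0%) in at least 1 library, beside 12.2% of all genes. Of the 91, 11 had one in all 6 libraries, a pattern that 3.69% of all genes showed. Gene length was not matched, and a longer gene offers more room for a peak. The lists were also chosen with earlier results of these data known, so these shares are a description with no test. None of the 91 had peaks in all libraries of one group and 0 of the other, against 0.0618% of all genes for lead and 0.00562% for control. Listed genes with a peak numbered 25, 15 and 26 in lead replicates 1, 2 and 3, and 18, 23 and 21 in control replicates 1, 2 and 3. The means were 22 ± 6.08 in lead and 20.7 ± 2.52 in control samples (± SD, n = 3 each; two-sided exact permutation test, p = 0.8). Their difference of 1.33 genes turned to -0.167 without lead replicate 1 and to -0.667 without lead replicate 3.

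Of the other nuclear receptor genes, 8 of 14 had a peak and 2 had one in all libraries. Hr4 (X, 1941940 to 2007956), which acts beside Hr3 in the prepupal switch, had 12, 7 and 9 peaks in lead replicates 1, 2 and 3, and 5, 8 and 8 peaks in control replicates 1, 2 and 3. The other was eg, with 1 peak in each library. For dsf the peak was seen in 0 lead and 2 control libraries, for Hr78 in 2 lead libraries and 1 control library, and for svp in 0 lead libraries and 1 control library.

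Among hormone-induced late and target genes 9 of 32 had a peak. The zinc-finger gene mamo on X had 23, 6 and 12 peaks in lead replicates 1, 2 and 3, and 9, 14 and 15 peaks in control replicates 1, 2 and 3. As in br, lead replicate 1 held the most. Sgs3, a salivary glue gene, E23, an ecdysone-induced transporter gene, and ImpL1 had 1 peak in each of the 6 libraries, and crol had 3 to 5. The regulators ab and chinmo were marked in 3 lead and 2 control libraries each, and Blimp-1 in 2 lead libraries and 1 control library.

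Genes of ecdysteroid synthesis, release and import had a peak in 3 of 16. These were spok, a cytochrome P450 gene marked in all 6 libraries, mld, a regulator of synthesis marked in 2 lead and 3 control libraries, and nvd, which encodes an enzyme early in synthesis and was marked in 2 lead libraries and 1 control library. Receptor coregulators had a peak in 8 of 16, with the corepressor genes Sin3A and CtBP and the Mediator gene skd marked in all 6 libraries. Smr, a corepressor that binds EcR, lies on X and had 8, 1 and 1 peaks in lead replicates 1, 2 and 3, and 0, 0 and 1 peaks in control replicates 1, 2 and 3. It was marked in 3 lead libraries and 1 control library. The coactivator gene tai was marked in 2 lead and 3 control libraries, and bon and TP53INP in 1 lead library and 0 control libraries. Of the 13 genes of juvenile hormone and membrane ecdysteroid signalling, Met and gce on X, both encoding receptors of juvenile hormone, were marked. The peak was seen in 2 lead and 2 control libraries for Met and in 1 lead library and 1 control library for gce. These 2 were named after their values were seen.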

How the data were processed

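Peaks in adult-head MeDIP-seq libraries of the lead and control groups (3 each, assigned from the sample titles) were read for 10 listed genes. Per the submitters' processing notes, reads were processed with cutadapt and Bowtie2 2.1.0 on dm6; the peak caller is not given in the sources used here. Genomic DNA was sheared by sonication and a portion set aside as input, per the labels' protocols. The names in the deposited lists (IP against Input of the same replicate) show that the authors called peaks per library. The deposited score per peak is a whole number whose meaning is not stated. The deposited lists also give peak widths, which equal end minus start plus 1, so the start and end positions both belong to the peak. Coordinates were read as 1-based, which the widths alone do not show. Repeated rows were dropped. Depth per library is unknown.

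Peaks were joined into regions at an overlap of 1 bp, and gene spans came from RefSeq (Release 6). For group differences the 6 labels were permuted exactly (20 assignments, two-sided, threshold 0.05). Functions were tested on simulated lists. Members and lists were chosen with earlier results of these data known; 10 listed names were matched through RefSeq synonyms. Listed genes were named by a peak in all 6 libraries (up to 5 per list) or by the largest difference between groups (up to 4). Alternatives were equal numbers of peaks, a score of at least 47, windows without flanks or with 5 kb, an overlap of at least 0.5 of the peak, leaving out each library, and the replicate block; autosomes alone were added after the data were seen. Sequences, strand and base composition were not used here. Software was scipy 1.17.1, numpy 2.4.6 and pandas 2.3.3 in Python 3.11.15, with figures drawn in matplotlib 3.10.9.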

Additional observations from a re-analysis of the deposited data

How the results depend on the processing

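Of 142 alternative values, 128 kept their direction and side of the threshold or their count within 1.5 times. Of the rest, 8 differences reversed, 2 became weaker and 4 counts moved. Many of the 128 could hardly change, being counts that stayed at 0 or replicate-block values fixed by construction. No group difference could pass a threshold of 0.05 under the settings run, since the exact tests cannot give less than 0.1; depth per library is unknown and limits every absent peak. Without each library in turn, the difference between lead and control ranged from -0.833 to 14.2 member peaks, from -1279.7 to 4573 covered bp, from -28.6 to 2.67 bp in median width, from -0.667 to 4.83 listed pathway genes, from 0.667 to 1.67 members with a peak, and from 0.0481 to 0.219 percentage points in the share of peaks. Regions with peaks in all lead libraries alone then ranged from 0 to 3, in all control libraries alone from 0 to 1, and genes in all lead libraries alone from 0 to 1. With equal numbers of peaks the pathway-gene difference turned to -0.667 and the width difference was 0. With a score of at least 47 the pathway-gene difference turned to -1.33, and 5 regions in place of 9 were held by all 6 libraries. Beyond fewer peaks or libraries in each setting, the cause was not tested.

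Nothing in the labels ties equal replicate numbers together, and no pairing was seen (correlations of deviations over all regions 0.0114, -0.0147 and -0.00577 for equal numbers). With the replicate block the differences stay at 7.67 peaks, 1 member, 1988 bp, 0.144 percentage points, -12.5 bp and 1.33 pathway genes by construction. Exact sign-flip p-values ran from 0.25, the smallest possible, to 1.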
